A study of Mus musculus with 6 samples.

Results

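The data describe 10 genes of epithelial junctions and of the cell surface in sorted basal cells of the mouse mammary gland: the claudins Cldn1, Cldn3, Cldn4 and Cldn7, the tight junction proteins Ocln and Tjp1, the adhesion molecule Epcam, the cadherins Cdh1 and Cdh3, and Cd24a. The genes were listed by name, and each was read from the single-gene probe set with the highest mean over 6 arrays. All 10 were measured, of 22180 genes in the table. The knockout group held 3 arrays of cells from mice that were Trp53-/-, p16ink4a-/- and p19arf-/-, the last 2 being products of Cdkn2a. The wild type group held 3 arrays. Every sample was labelled as coming from a virgin female aged 8 to 14 weeks and as a biological replicate. Neither the strain nor any Cre driver was given in the labels. Microbeads for CD45, CD31 and TER119 were used to deplete blood and endothelial cells before the basal sort, whose stains included CD49f, CD24 and CD14. Since CD24 was part of the sort, the Cd24a level is not independent of how the cells were chosen, and no source used here gave the gates.

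Tight junctions seal the space between neighbouring epithelial cells. Claudins and occludin span the membrane there, and ZO-1, the product of Tjp1, ties them to actin. Below them, cadherins join cells at adherens junctions through catenins. In the mammary gland the inner luminal layer carries the tight junctions and much of the E-cadherin, EpCAM and CD24, whereas P-cadherin, the product of Cdh3, belongs to the outer basal layer.

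The RNA carried the markers of the labelled cell type. All 16 measured basal markers had a mean signal above 5.53, the 95th percentile of 1105 olfactory receptor genes, which served as the background of the arrays. Of all genes 55.2% had a mean above this background, so such a level alone does not mark a cell type. Krt14, the basal keratin, read 13.27, 13.27 and 13.21 on the knockout arrays and 13.29, 13.51 and 13.30 on the wild type arrays (log2). The basal factor Trp63 had a log2 fold change of 0.35, Myh11, a smooth muscle myosin gene, of 0.23 and Igfbp5 of 0.20, and none of them passed. Ptprc, which encodes CD45, lay below the background level on every array, at 3.35 to 3.75 in the knockout and 3.28 to 3.43 in wild type. Pecam1, which encodes CD31, lay above it on every array, at 6.18, 6.39 and 5.77 in the knockout and 5.85, 5.66 and 5.73 in wild type, with a log2 fold change of 0.37 (limma adjusted p = 1.0). Luminal markers were present as well, with 14 of 17 above background, among them the luminal keratin Krt8 at 11.05 to 11.34 in the knockout and 11.01 to 11.86 in wild type. All 10 junction and surface genes lay above the background level on every array. Signals of different probe sets have different scales, so levels were compared between arrays and not between genes.

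Cldn3, Cldn4, Cldn7 and Ocln differed most between arrays, and they did so together with each other and with the mean of the luminal markers. Cldn4 spanned 4.04-fold from its lowest to its highest array, Cldn7 3.03-fold, Cldn3 2.19-fold and Ocln 2.07-fold. All 4 were highest on wild type replicates 2 and 3 and lowest on knockout replicate 3 and wild type replicate 1. The other 6 genes spanned between 1.20-fold for Cdh1 and 1.61-fold for Cdh3. No gene passed the test between genotypes.

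The promoters of the genes that moved together are shown here because Snail and Zeb factors, known repressors of epithelial junction genes, bind the E-box CAGGTG or, on the other strand, CACCTG. Each window runs from 250 bases before to 50 bases after the gene's start (RefSeq, GRCm38.p6), 5′ to 3′ on the gene's strand, with every E-box in capitals. The windows lie at chr5:134985964-134986263 on the plus strand for Cldn3, chr5:134946885-134947184 on the minus strand for Cldn4, chr11:69965171-69965470 on the plus strand for 1 of the starts of Cldn7, and chr13:100552449-100552748 on the minus strand for 1 of the starts of Ocln.
Cldn3: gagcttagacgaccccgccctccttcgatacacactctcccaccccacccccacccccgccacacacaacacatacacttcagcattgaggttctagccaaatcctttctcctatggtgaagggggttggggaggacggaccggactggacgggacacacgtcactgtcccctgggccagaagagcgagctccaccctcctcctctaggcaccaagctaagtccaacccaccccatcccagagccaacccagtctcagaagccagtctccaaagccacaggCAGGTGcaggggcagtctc
Cldn4: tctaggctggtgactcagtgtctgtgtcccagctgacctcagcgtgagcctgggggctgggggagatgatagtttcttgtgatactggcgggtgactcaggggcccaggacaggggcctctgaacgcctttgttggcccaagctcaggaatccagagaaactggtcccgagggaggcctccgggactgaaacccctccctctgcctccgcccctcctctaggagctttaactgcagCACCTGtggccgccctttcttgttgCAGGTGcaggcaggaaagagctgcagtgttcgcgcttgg
Cldn7: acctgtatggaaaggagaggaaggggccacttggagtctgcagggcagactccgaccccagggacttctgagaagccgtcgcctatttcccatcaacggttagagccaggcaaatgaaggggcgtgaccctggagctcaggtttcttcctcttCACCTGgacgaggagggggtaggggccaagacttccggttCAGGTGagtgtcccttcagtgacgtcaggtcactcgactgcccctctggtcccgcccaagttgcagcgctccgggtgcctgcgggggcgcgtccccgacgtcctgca
Ocln: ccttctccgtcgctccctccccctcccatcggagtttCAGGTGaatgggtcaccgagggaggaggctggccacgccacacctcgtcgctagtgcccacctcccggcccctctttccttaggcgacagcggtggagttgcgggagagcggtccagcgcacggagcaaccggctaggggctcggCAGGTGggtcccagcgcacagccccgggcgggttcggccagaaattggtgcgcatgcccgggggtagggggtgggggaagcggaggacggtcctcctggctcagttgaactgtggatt
The windows of Cldn4, Cldn7 and Ocln hold 2 E-boxes each and that of Cldn3 holds 1. The first of these in Cldn4 begins 14 bases before the start, and the one in Cldn3 begins at base 32 of the transcript. Of 9 windows listed for 7 of the genes, 6 hold at least 1 E-box, the window of Epcam among them, while those of Cldn1, of Tjp1 and of the other start of Cldn7, at chr11:69964529-69964828 on the plus strand, hold none. Both windows of Ocln overlap and share 1 E-box. No window was available for Cdh1, Cdh3 or Cd24a, so their promoters are outside these counts. Among all 32851 promoter windows of the same length 20.2% hold the motif on either strand. A match describes the letters only and was not tested for binding. Cldn3 and Cldn4 are direct neighbours on chromosome 5, and no protein-coding gene lies between Cdh3 and Cdh1 on chromosome 8 in the RefSeq table.

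Cldn4, a claudin of luminal tight junctions that can limit the passage of ions, read 9.98, 10.1 and 9.21 on knockout arrays 1 to 3 and 9.14, 11.2 and 10.7 on wild type arrays 1 to 3. The 3 knockout arrays thus fell between wild type replicate 1 on the low side and the other wild type arrays on the high side. The means were 9.76 ± 0.475 in the knockout and 10.3 ± 1.06 in wild type (SD, n = 3 each). The log2 fold change was -0.59 ± 0.467 (SE; limma adjusted p = 1.0), a ratio of 0.665 with a 95% interval from 0.320 to 1.38. This interval holds both a lower and a higher level in the knockout.

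Cldn7, which has roles at the lateral membrane as well as in tight junctions, had the same order. It read 6.37, 6.39 and 6.03 in the knockout and 5.94, 7.54 and 7.08 in wild type, with a log2 fold change of -0.59 ± 0.356 (SE; limma adjusted p = 1.0). The standard deviation was 0.198 in the knockout and 0.823 in wild type (n = 3 each), and the knockout values fell inside the wild type range.

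Cldn3, another sealing claudin, read 7.63, 7.89 and 7.17 in the knockout and 7.33, 8.29 and 8.27 in wild type. Its log2 fold change was -0.40 ± 0.296 (SE; limma adjusted p = 1.0). Ocln, which encodes occludin, read 7.11, 7.00 and 6.53 in the knockout and 6.78, 7.57 and 7.20 in wild type, with a log2 fold change of -0.31 ± 0.243 (SE; limma adjusted p = 1.0). For both genes the groups overlapped through wild type replicate 1. Same-numbered arrays differed in opposite directions for all 4 genes. At replicate 1 the knockout was higher, by 0.84 for Cldn4, 0.43 for Cldn7, 0.30 for Cldn3 and 0.32 for Ocln. At replicate 2 the differences were -1.08, -1.15, -0.40 and -0.57 in the same order of genes, and at replicate 3 they were -1.53, -1.04, -1.11 and -0.68. Without wild type replicate 1 the log2 fold changes were -1.19 for Cldn4, -1.05 for Cldn7, -0.72 for Cldn3 and -0.51 for Ocln. Without wild type replicate 2 they were -0.18, -0.25, -0.24 and -0.11 in that order. Without knockout replicate 3 they were -0.31, -0.48, -0.21 and -0.13, and without wild type replicate 3 that of Cldn3 was -0.25. None of these passed.

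**Figure D1:**
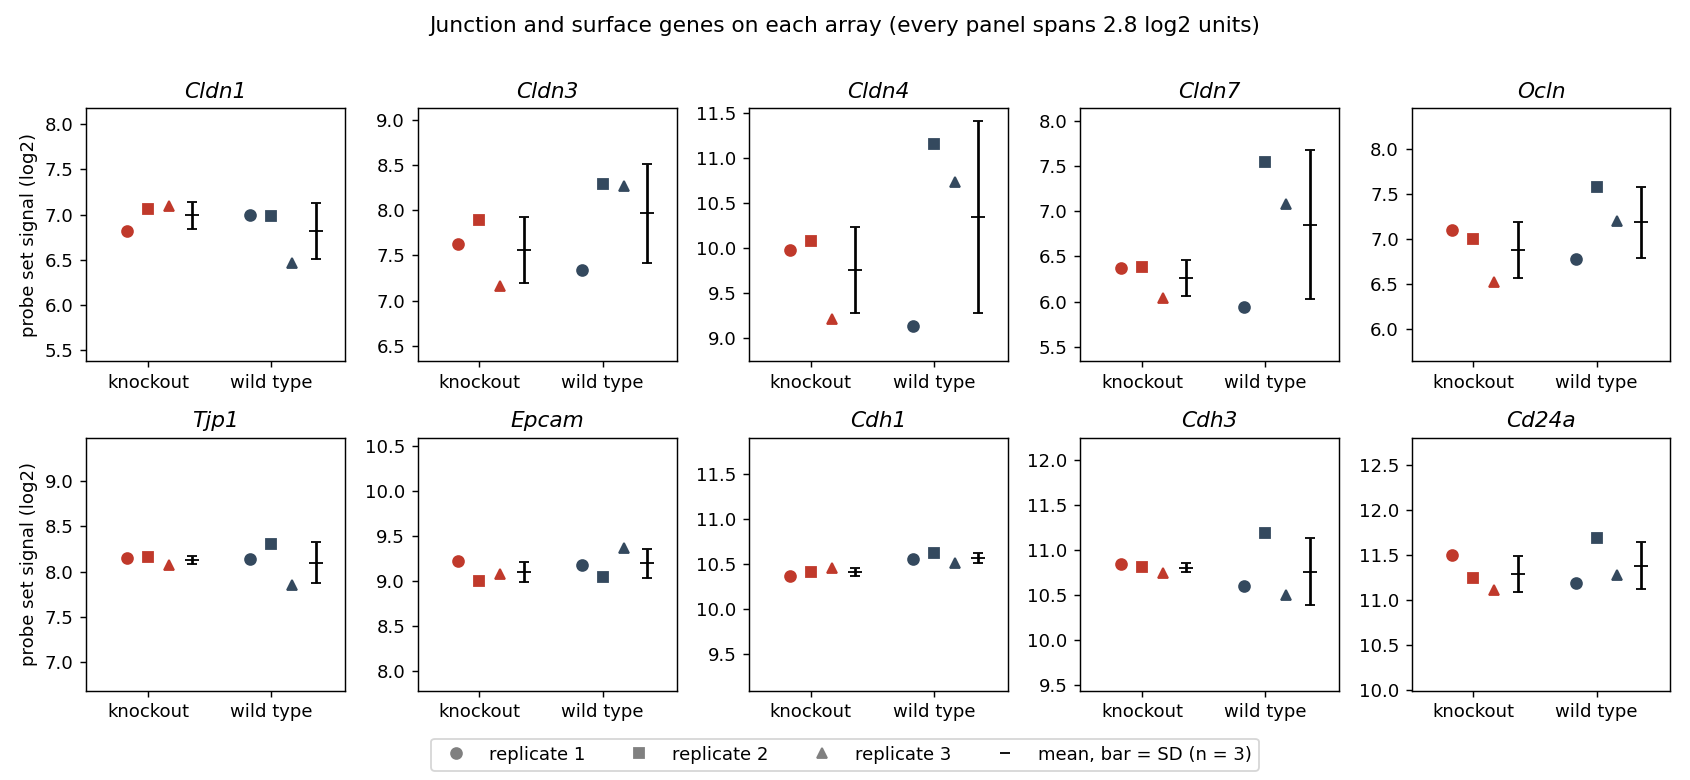
Probe set signal (log2, vertical axis) of the 10 genes on the 3 knockout arrays (red) and the 3 wild type arrays (dark), with symbols for replicate numbers and the mean ± SD beside the points; every panel spans the same range of log2 units. Cldn3, Cldn4, Cldn7 and Ocln scatter most, with wild type replicate 1 near the lowest knockout array, while Cdh1 is the only panel without overlap between the groups.

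Cldn1, a claudin that is also abundant in stratified epithelia such as skin, did not follow the other claudins. It read 6.82, 7.06 and 7.09 in the knockout and 7.00, 6.99 and 6.46 in wild type, so that wild type replicate 3, among the highest arrays for Cldn4, was the lowest for Cldn1. The log2 fold change was 0.17 ± 0.197 (SE; limma adjusted p = 1.0), and -0.0039 without that array. Tjp1 read 8.15, 8.16 and 8.08 in the knockout and 8.14, 8.31 and 7.86 in wild type, with a log2 fold change of 0.03. Its ratio had a 95% interval from 0.778 to 1.34, which leaves room for a moderate change in either direction. Without wild type replicate 3 the value was -0.09.

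Epcam, which encodes a homophilic adhesion molecule that binds Cldn7, was among the steadier genes although it is a luminal-associated one. It read 9.22, 9.00 and 9.08 in the knockout and 9.17, 9.05 and 9.37 in wild type, a log2 fold change of -0.10 ± 0.159 (SE; limma adjusted p = 1.0). Its standard deviation over the 6 arrays exceeded that of 20.4% of all genes, compared with 99.4% for Cldn4 and 98.5% for Cldn7. Cd24a, which encodes a glycoprotein anchored in the membrane by a lipid, read 11.5, 11.2 and 11.1 in the knockout and 11.2, 11.7 and 11.3 in wild type. Its log2 fold change was -0.10 ± 0.165 (SE; limma adjusted p = 1.0), and 0.05 without wild type replicate 2. Among the other genes of the sort, Itga6, which encodes CD49f, read 10.3 to 10.6 in the knockout and 10.3 to 10.6 in wild type. Cd14 read 7.00 to 7.95 in the knockout and 7.00 to 8.21 in wild type, with log2 fold changes of 0.04 for Itga6 and -0.18 for Cd14.

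Cdh1, which encodes E-cadherin, was the one gene whose groups did not overlap, by a small margin. It read 10.37, 10.41 and 10.46 in the knockout and 10.55, 10.63 and 10.51 in wild type, with means of 10.41 ± 0.043 in the knockout and 10.56 ± 0.056 in wild type (SD, n = 3 each). The log2 fold change was -0.15 ± 0.123 (SE; limma adjusted p = 1.0), a ratio of 0.899 with a 95% interval from 0.742 to 1.09. Of the 10 genes 1 had all knockout arrays below all wild type arrays, where 4.05% of all genes did, and 0 had them all above, where 3.63% of all genes did. Same-numbered arrays differed by -0.19, -0.22 and -0.06. Leaving out any 1 array kept the log2 fold change between -0.18 and -0.12, whereas the mean of both probe sets of the gene gave -0.38 (unadjusted p = 0.0411, limma adjusted p = 1.0).

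A second, dimmer probe set of Cdh1, which the choice of the brighter row left out, also had groups that did not overlap. It read 6.82, 6.20 and 6.76 in the knockout and 7.33, 7.17 and 7.09 in wild type. In a fit over all 23521 rows with 1 gene its log2 fold change was -0.61 ± 0.202 (SE), with an unadjusted p of 0.0151 and a limma adjusted p of 1.0. The probe sets differed in the size of the difference, and no source used here gave their position in the gene. The dimmer probe set of Cd24a read 9.18, 8.92 and 8.66 in the knockout and 8.93, 9.37 and 9.25 in wild type, with overlap and a log2 fold change of -0.26.

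**Figure D2:**
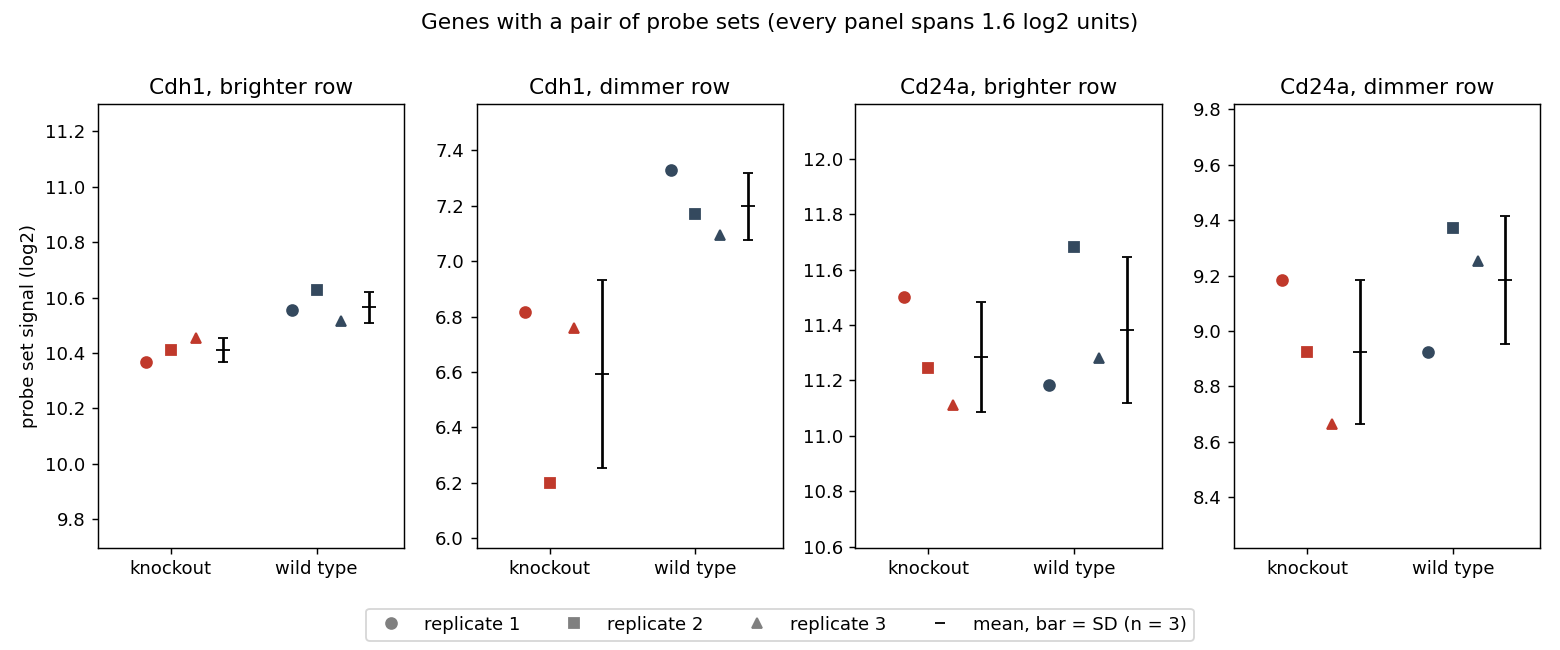
Signal (log2, vertical axis) of both probe sets of Cdh1 and of Cd24a on the knockout arrays (red) and the wild type arrays (dark), with the mean ± SD of 3 arrays beside the points. Both Cdh1 panels have every knockout array below every wild type array, whereas the Cd24a groups overlap in both panels.

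Cdh3, the P-cadherin gene and the basal member of the set, did not differ between genotypes beyond the spread of the arrays. It read 10.8, 10.8 and 10.7 in the knockout and 10.6, 11.2 and 10.5 in wild type, so wild type arrays lay on both sides of the knockout. The log2 fold change was 0.04 ± 0.184 (SE; limma adjusted p = 1.0), with a 95% interval of the ratio from 0.771 to 1.37. Leaving out wild type replicate 2 gave 0.25, replicate 1 gave -0.04 and replicate 3 gave -0.09. The 7 luminal-associated genes, which are Cldn3, Cldn4, Cldn7, Ocln, Epcam, Cdh1 and Cd24a, averaged 8.88, 8.86 and 8.51 in the knockout and 8.59, 9.42 and 9.21 in wild type. Taken within each array as that mean minus Cdh3, the values were -1.96, -1.96 and -2.24 in the knockout and -2.01, -1.77 and -1.29 in wild type. Wild type replicate 1 again lay inside the knockout range.

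By count, 3 of the 10 genes had a log2 fold change above 0 and 7 below, with a median of -0.13, beside a median of -0.01 over all genes, of which 51.7% lay below 0. At a limma adjusted p under 0.05, 0 of the 10 genes passed, where 0 of 22180 genes passed (0.0% higher and 0.0% lower). At an unadjusted p under 0.05, 357 genes were higher and 379 lower, none of them among the 10. With replicate as a block 0 genes passed, and 1112 genes had an unadjusted p under 0.05 in place of 736. The median was 0.019 once the mean of the luminal markers on each array was a covariate, and the log2 fold changes of Cldn4 and Cdh1 were then 0.13 and -0.14.

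**Figure D3:**
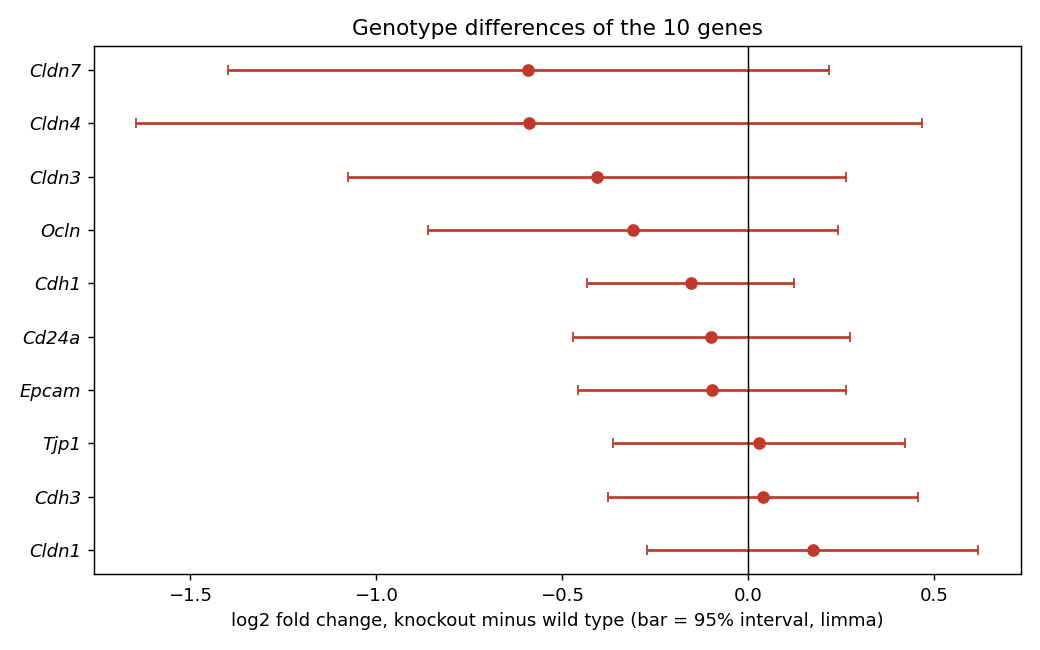
Log2 fold change, knockout minus wild type (horizontal axis), of the 10 genes, with limma's 95% interval as the bar. All intervals include 0, and those of Cldn4 and Cldn7 are the widest.

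The mean of the luminal markers moved with Cldn3, Cldn4, Cldn7 and Ocln from array to array. The mean of 17 measured luminal markers, none of them among the 10 genes, was 7.44, 7.60 and 7.16 on the knockout arrays and 7.16, 8.25 and 7.90 on the wild type arrays. Of these markers 16 were lower and 1 higher in the knockout, with a median log2 fold change of -0.32. Krt18 read 11.2, 11.2 and 10.6 in the knockout and 10.9, 12.2 and 11.8 in wild type. Anxa3 was the 1 luminal marker of 17 whose knockout arrays all lay below the wild type arrays, where 4.05% of all genes did. Among the 16 basal markers Krt14 alone had this order too. Anxa3 read 8.72, 8.72 and 8.55 in the knockout and 9.00, 9.27 and 9.15 in wild type. Its log2 fold change was -0.48 and did not pass (unadjusted p = 0.0137, limma adjusted p = 1.0), and its value on wild type replicate 1 was above all knockout values, unlike those of Cldn4. Sytl2, with a mean below background, had a value of -0.85. Krt19 had a value of -0.58. Elf5, a luminal progenitor factor, lay below the background level on every array. Not every marker followed the mean. Kit was lowest on wild type replicate 3, at 7.22, and Tspan8 and Elf5 were highest on knockout replicate 3, at 8.74 and 5.28. Over the 6 arrays Cldn4 followed the luminal mean with a Pearson r of 0.987 (exact two-sided permutation p = 0.00278, adjusted p = 0.0278 over 20 relations). Cldn7 also had an r of 0.987, with the same exact permutation p and adjusted p. For Cldn3 r was 0.957 (exact permutation p = 0.00417, adjusted p = 0.0278) and for Ocln 0.937 (exact permutation p = 0.00694, adjusted p = 0.0347). Spearman's rho was 1 for Cldn3, with an exact permutation p of 0.00278, the smallest that ranks of 6 arrays can give, and an adjusted p of 0.0556, and 0.943 for Cldn4, Cldn7 and Ocln, with an exact permutation p of 0.0167 and an adjusted p of 0.0667. By rank, therefore, none of the 20 relations passed after adjustment in the values as deposited. This depended on the processing. With median centring, and with the mean of all rows of a gene, rho was 1 for Cldn4 and Cldn7 (adjusted exact permutation p = 0.0278). After quantile normalization rho was 1 for Cldn4 and did not pass (adjusted exact permutation p = 0.0556). After quantile normalization the Pearson relations of Cldn4 and Cldn7 passed, whereas those of Cldn3 and Ocln did not (r = 0.938 and 0.895, adjusted exact permutation p = 0.0926 and 0.0972). With the mean of all rows of a gene that of Ocln did not pass (r = 0.924, adjusted exact permutation p = 0.0556).

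Without wild type replicates 2 and 3, the arrays farthest from the median luminal level, r was 0.973 for Cldn4, 0.950 for Cldn7, 0.977 for Cldn3 and 0.812 for Ocln over the 4 arrays left. With each genotype centred on its own mean, r was 0.988, 0.985, 0.944 and 0.919 in that order. A genotype alone held only 3 arrays, too few for a value of its own. Leaving out any 1 array kept r at 0.858 or above for all 4 genes. The other 6 genes gave no relation that passed. Cd24a had an r of 0.752 and a rho of 0.829 (exact permutation p = 0.0875 and 0.0583, adjusted p = 0.350 and 0.194), Cdh3 of 0.510 and 0.314 (exact permutation p = 0.311 and 0.564, adjusted p = 0.589 and 0.775) and Cdh1 of 0.500 and 0.371 (exact permutation p = 0.321 and 0.497, adjusted p = 0.589 and 0.775). Epcam had an r of 0.033 and a rho of -0.086 (exact permutation p = 0.936 and 0.919, adjusted p = 0.985 and 0.919). Cldn1 had an r of -0.380 and a rho of -0.600 (exact permutation p = 0.464 and 0.242, adjusted p = 0.589 and 0.537). Tjp1 had an r of 0.148 and a rho of 0.429 (exact permutation p = 0.818 and 0.419, adjusted p = 0.909 and 0.775). Against the mean of the 16 basal markers, 0 of the 10 genes passed after adjustment. The smallest Pearson p there was that of Epcam, with an r of -0.712 (exact permutation p = 0.111, adjusted p = 0.370), and the smallest Spearman p that of Tjp1, with a rho of 0.943 (exact permutation p = 0.0167, adjusted p = 0.0667). In bulk RNA, fewer cells of a type and less RNA per cell cannot be told apart, and the part of luminal cells in these differences was not tested.

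**Figure D4:**
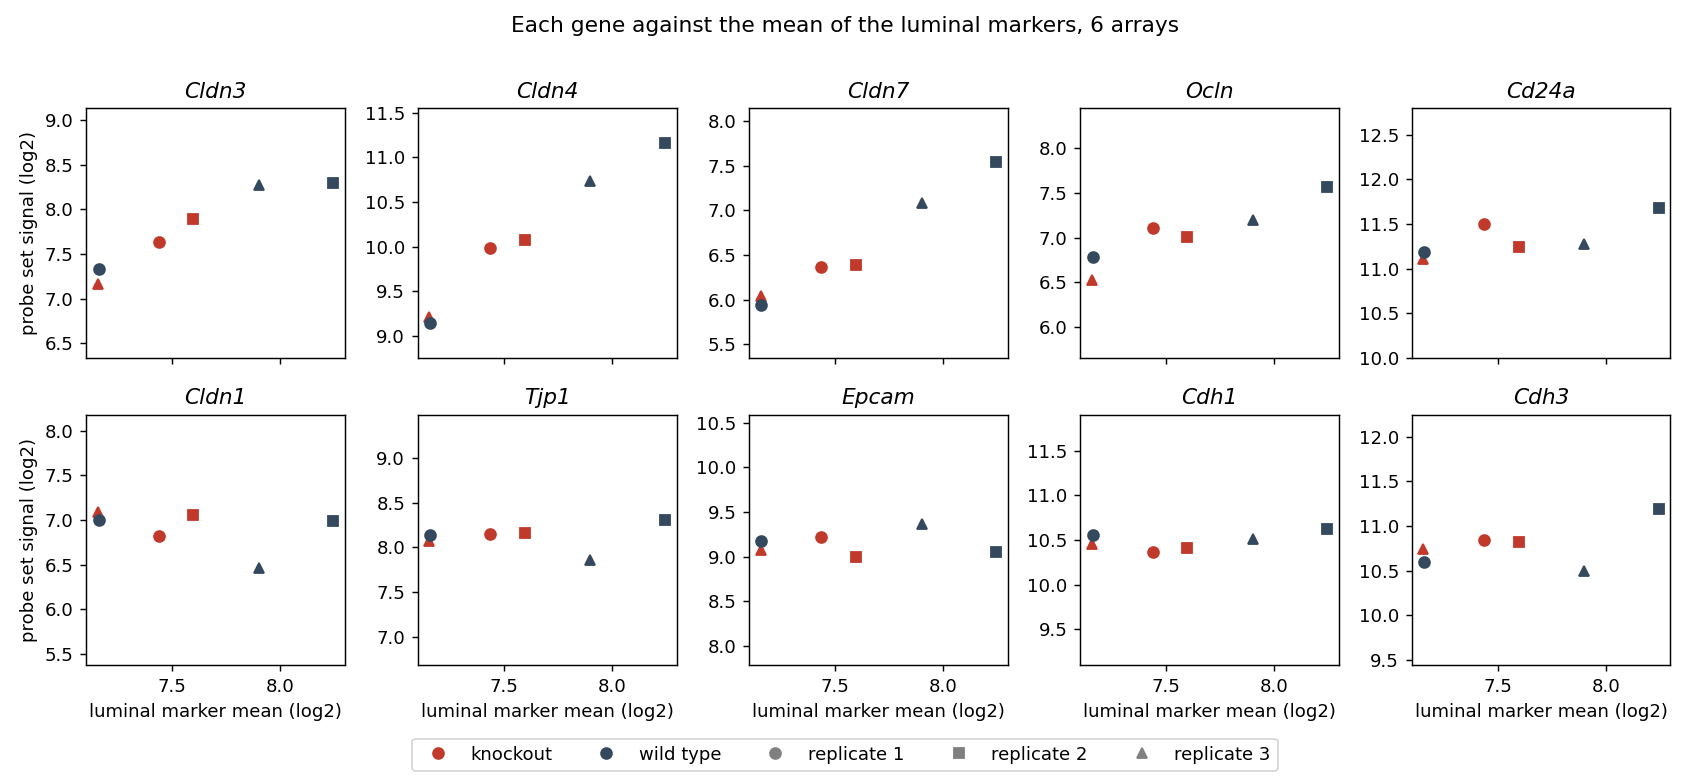
Signal of each gene (log2, vertical axis) against the mean of 17 luminal markers (log2, horizontal axis) on the 3 knockout arrays (red) and the 3 wild type arrays (dark), with symbols for replicate numbers. Cldn3, Cldn4, Cldn7 and Ocln lie along a rising line that both genotypes share, and Epcam, Cdh1, Tjp1 and Cldn1 do not.

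The order of arrays seen in Cldn3, Cldn4, Cldn7 and Ocln, with wild type replicates 2 and 3 highest and knockout replicate 3 and wild type replicate 1 lowest, was looked for in the other genes after these values were seen. It was present in 2.64% of all genes and in 9 of 17 luminal markers, among them Krt8, Krt18, Krt19, Foxa1 and Esr1. It was present in 0 of 16 basal markers. Among 18 other claudins it was present in Cldn6, Cldn8 and Cldn10. Cldn8 had the widest spread of these, at 6.42, 6.57 and 5.90 in the knockout and 5.70, 8.30 and 8.16 in wild type, with a log2 fold change of -1.09 ± 0.597 (SE; limma adjusted p = 1.0). Cldn10 read 7.47, 6.97 and 6.85 in the knockout and 6.74, 8.14 and 7.66 in wild type. Of the other claudins 8 were higher and 10 lower in the knockout, 7 of 18 had a mean above background, and 0 passed. Cldn22 and Cldn23, with the smallest p beside Cldn8, had log2 fold changes of -0.27 and 0.26, the first with every array below background and the second with 2 such arrays.

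Among partners of the tight junction 0 of 22 passed, with 13 higher and 9 lower in the knockout and a median log2 fold change of 0.03. Tjp3, the ZO-3 gene, and Crb3, a polarity gene named after its values were seen, had the order of arrays seen in Cldn4, and Tjp3 had a log2 fold change of -0.33. Pard6b and Prkci, which also act in polarity complexes, had values of 0.30 and -0.30. Adherens junction partners had 5 of 17 higher and 12 lower, with a median of -0.05 and 0 past the test. Jup, the plakoglobin gene, and Afdn, the afadin gene, both named after their values were seen, had all knockout arrays below all wild type arrays, with log2 fold changes of -0.16 and -0.11. They were 2 of 17 in that list, where 4.05% of all genes had this order. Nectin4 had a value of -0.39, Nectin2 of -0.23 and Cdh5, the endothelial cadherin gene, of 0.27.

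St14 and Spint1, from the list of genes related to EpCAM and CD24, had the order of arrays seen in Cldn4. St14, the matriptase gene, read 8.62, 8.85 and 8.30 in the knockout and 8.48, 9.52 and 9.18 in wild type. Spint1, which encodes an inhibitor of matriptase, read 8.79, 8.92 and 8.24 in the knockout and 8.40, 9.47 and 9.39 in wild type. Their log2 fold changes were -0.47 and -0.44, with standard errors of 0.273 and 0.303 (limma adjusted p = 1.0 for both). Of the 7 genes in that list 3 were higher and 4 lower, with a median of -0.0031, and Selp, which encodes a CD24-binding selectin, had a value of 0.26.

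Among known regulators of junction and other epithelial genes, 0 passed the test. In 1 of 8 repressors, Twist1, and 1 of 12 activators, Grhl2, every knockout value exceeded every wild type value, where 3.63% of all genes had this order. Twist1, a repressor of Cdh1, read 6.16, 6.65 and 6.22 in the knockout and 5.76, 5.32 and 5.48 in wild type, where replicates 2 and 3 and the mean of 5.52 lay below the background level. Its log2 fold change of 0.82 did not pass (limma adjusted p = 1.0) and rests on a wild type signal that is not above background. Grhl2, which keeps Cdh1, Cldn4 and other epithelial genes on, read 7.55, 7.49 and 7.33 in the knockout and 6.93, 7.27 and 6.94 in wild type, with a log2 fold change of 0.41 ± 0.172 (SE; limma adjusted p = 1.0). Of the 8 repressors 5 were higher and 3 lower, and 3 of 8 had a mean above background. Zeb1 and Klf8, at 0.31 and -0.38, were not among these, nor was Twist2, which had the order of arrays seen in Cldn4. Of the 12 activators 6 were higher and 6 lower, with Esrp2 at -0.37 and Grhl1, whose mean lay below background, at -0.25. Snai2, a repressor that marks basal cells and is named after its values were seen, read 11.1, 10.7 and 11.5 in the knockout and 11.4, 9.94 and 10.9 in wild type. Its lowest array was thus wild type replicate 2, the highest for Cldn3, Cldn4, Cldn7 and Ocln. Twist1 was lowest on that array too. Tcf3, which also had a mean above background and is named after its values were seen, went the other way. It read 6.38, 6.78 and 6.85 in the knockout and 6.24, 7.19 and 6.75 in wild type, highest on that array. No relation of a repressor to the claudins was tested.

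The genes most like 4 of the members were sought among 3430 genes with a standard deviation of at least 0.3 over the arrays and a mean above background. Over the 6 arrays Cldn3 was most like Akip1 (Pearson r = 0.998), Spint1 (0.995), Krt19 (0.994), Dusp18 (0.991) and Cmtm8 (0.989). Cdh1 was most like Naa40 (0.966), Mpzl3 (0.964), Rhbdd2 (0.943), Pde7b (0.940) and Mid1 (0.932). Cdh3 was most like Tmem143 (0.993), Scarf2 (0.988), Dapk1 (0.988), Arfip1 (0.984) and Cnksr3 (0.983). Cd24a was most like Cryzl2 (0.995), Slc25a37 (0.984), Nek6 (0.980), Chd6 (0.968) and Tmem159 (0.965). These are the highest of 3430 values over few arrays and are given as a description. Cdh1, Cdh3 and Cd24a themselves had standard deviations of 0.095, 0.238 and 0.216 over the arrays, below the 0.3 asked of the compared genes. A high r there does not mean differences of like size.

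The mean levels of fibroblast and adipocyte markers were higher on every knockout array than on any wild type array, and none of these genes passed the test between genotypes. The separation of the adipocyte means rested on Fabp4. That of the fibroblast means rested on Lum and Pdgfra together, both with a mean below background. Without these genes the groups overlapped through wild type replicate 1. The mean of 7 fibroblast markers was 7.16 to 7.30 in the knockout and 6.60 to 6.96 in wild type, with 7 of 7 higher in the knockout, and Lum read 5.43, 4.72 and 6.09 in the knockout and 4.23, 4.17 and 3.98 in wild type, above background on knockout replicate 3 alone. Dcn, the decorin gene, had a log2 fold change of 0.54, and Pdgfra, with a mean below background, of 0.85. The mean of 6 adipocyte markers was 5.80 to 5.95 in the knockout and 5.52 to 5.59 in wild type. Fabp4 had a log2 fold change of 1.31, Retn of 0.18 and Lpl, with every array below background, of 0.21. The defining gene Adipoq lay below background on every array. The means of 8 immune markers were 5.32 to 5.51 in the knockout and 5.15 to 5.43 in wild type, and those of 7 endothelial markers 5.59 to 5.72 in the knockout and 5.43 to 5.67 in wild type. Cd68 had a log2 fold change of 0.36, and Lyz2 and Kdr, with means below background, of 0.45 and 0.31. The part of such cells in the values of the junction genes was not tested.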

How the data were processed

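Sorted basal cells were profiled on 6 whole-transcript arrays. The deposited values are log2 signals per probe set, made by the authors with RMA in Transcriptome Analysis Console 4.0, per the submitters' processing notes. RMA gives all arrays one distribution of signals, so a shift shared by all genes would not be seen. No source used here gave the genome build.

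Of 41345 rows 23521 had 1 gene symbol, 1814 several, and 16010 were unnamed here. The row of highest mean was kept for each of 22180 genes, and symbols were updated by gene identifier. Medians over genes lay between 5.73 and 5.81, and correlations between arrays, across all rows, between 0.961 and 0.978. Arrays have no read depth, and their number limits the precision. Intervals and p-values of the genotype comparison rest on the spread between these samples, moderated by limma's prior over all genes. Cdh1 had standard deviations of 0.043 in the knockout and 0.056 in wild type, and a moderated SE of 0.123. Its interval is thus not set by its own spread alone.

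The genotype comparison used limma 3.58.1 under R 4.3.3 (mean-dependent prior, two-sided, Benjamini-Hochberg over all genes). In 5 simulated data sets of 22180 genes, 52.4% of genes changed by a log2 of 1 and 92.2% of those changed by 2 were called, with 5.4 false calls on average. Noise there was drawn independently for each gene, without variation that genes share on an array. These shares are averages over genes sampled from the whole table. They do not hold for a gene as variable as Cldn4, whose SE was 0.467 where the median over all genes was 0.173. Correlations over arrays had exact permutation tests. The genotypes share replicate numbers, and deviations of same-numbered arrays from their group means correlated at 0.121, 0.250 and 0.127 across genes. Each was over 0.1, though wild type replicate 1 correlated at 0.130 with knockout replicate 3. The values given come from the fit without a block, and the blocked fit was an alternative. An exact test of 3 arrays against 3 cannot go below 0.1.

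The members and gene lists were chosen with earlier results of these data known. In each list the 3 genes of smallest p were to be named, together with members, sort markers, keratins and the 5 genes most like Cldn3, Cdh1, Cdh3 and Cd24a. Alternatives were the replicate block, a prior without trend, array weights, quantile normalization, median centring, a filter on dim genes, the mean of a gene's rows, a luminal covariate, a threshold of 0.1 and each array left out. Figures were drawn with matplotlib 3.10.9.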

Additional observations from a re-analysis of the deposited data

How the results depend on the processing

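No gene passed at 0.05 under any alternative run, and with all arrays none passed at 0.1. The smallest limma adjusted p was 0.818 as reported, 0.208 with replicate as a block, 0.139 with array weights and between 0.0749 and 0.999 without 1 array. The lowest was that of Oas1g without knockout replicate 1, the 1 gene under 0.1 there. Array weights gave 1970 genes at an unadjusted p under 0.05 and the filter on dim genes 359 of 12245, in place of 736. The mean difference of the 7 luminal-associated genes was -0.32. It was -0.03 with the luminal marker covariate and lay between -0.56 and -0.15 when 1 array was left out. The median over the 10 genes was -0.13. It turned to 0.019 with that covariate, was -0.24 with the mean of all rows of a gene (-0.38 for Cdh1 and -0.18 for Cd24a) and lay between -0.18 and -0.11 without 1 array. The covariate itself differed between the genotypes, so the part of either in a gene's value cannot be told apart. Signs turned for Cldn4 with the covariate, at 0.13, and for Cd24a with the covariate, at 0.055, and with array weights, at 0.022. Without 1 array the log2 fold changes ranged from -0.21 to 0.052 for Cd24a, from -0.090 to 0.25 for Cdh3, from -0.0039 to 0.27 for Cldn1 and from -0.091 to 0.13 for Tjp1. Those of Cldn3, Cldn4, Cldn7, Ocln, Epcam and Cdh1 kept their sign when any 1 array was left out. Of the 20 relations with marker means, 4 passed by Pearson r as deposited and 4 with median centring. With the mean of all rows of a gene 3 passed and after quantile normalization 2, and the cause was not tested. The fit of the dimmer probe sets of Cdh1 and Cd24a was chosen after seeing the data. Cldn7 lies near the background level, where signal over background limits the precision.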
